A study of Homo sapiens with 2 samples.

Results

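BCL2 family genes encode the proteins that decide whether the outer membrane of the mitochondrion is opened during apoptosis. The rule named 10 of them, all found by symbol among the 31845 Ensembl genes of the deposited table. They fall into 3 pro-survival genes (BCL2, BCL2L1 and MCL1), 2 effector genes (BAX and BAK1) and 5 BH3-only genes (BBC3, PMAIP1, BCL2L11, HRK and BID). RNA sequencing had been done on 1 library of parental Capan-1 cells and 1 library of a Capan-1 derivative selected for resistance to olaparib, an inhibitor of PARP enzymes. The parental group, labelled control, was the line as purchased. The resistant group had been grown through stepwise olaparib concentrations from 15 nM up to 128 uM. Both groups come from Capan-1, a line with a mutant BRCA2 gene. It was derived from a pancreatic adenocarcinoma, although the label for cell type reads breast cancer. The BRCA2 sequence of either group was not examined here. Whether the derivative is 1 clone, and whether olaparib was present at harvest, is not stated in the labels.

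Pro-survival proteins bind and hold back the effectors. BAX and BAK1, once active, assemble in the outer membrane and release cytochrome c, which starts the caspase cascade. BH3-only proteins respond to stress signals such as DNA damage or loss of growth factors and either block the pro-survival proteins or activate the effectors directly. Much of this control acts on protein binding, turnover and cleavage, which transcript counts do not measure.

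The resistant library held 34507480 counts and the parental library 34572931. Columns headed CAPAN1 were read as the parental sample. The labels do not explain the heading of the other columns, which were assigned to the resistant sample because no other sample was left, and each direction below depends on that assignment. BRCA2, named in the series title, had 7585 resistant and 1381 parental counts. Epithelial markers were abundant in both libraries, with 5 of 5 listed genes at 50 counts or more and summed counts of 168925 and 112400 in the resistant and parental library. No leukocyte or endothelial marker reached 50 counts. Leukocyte markers summed to 22 and 15 counts and endothelial markers to 3 and 3. Among fibroblast markers LUM had 523 resistant and 35 parental counts, whereas DCN had 5 and 0 and COL3A1 8 and 0. The part of such cells in any result was not tested. In bulk RNA, fewer cells expressing a gene and less RNA per cell cannot be told apart.

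Neither group has a replicate, so the groups could not be tested against each other and no p-value is given. Each log2 ratio is resistant over parental, on counts scaled with TMM factors and with a prior of 1 count added. Each interval is a 95% exact interval for the ratio of 2 counts and covers counting error alone. Calls of higher or lower required a 2-fold difference and 50 or more counts in whichever library had more. Of 15102 genes at that minimum, 8.95% were called lower, 6.0% higher and 15.0% either way, and the median log2 ratio was 0.06. Among the 10 members, 8 reached the minimum, 2 were lower, 0 were higher and 6 lay within 2-fold. HRK reached the minimum in the parental library only, so it could be called lower or not at all. BCL2 and BCL2L11 did not reach it in either library. Counting intervals excluded equal levels for 7 of the 8 members at the minimum, beside 84.9% of all genes at the minimum. They lay wholly past 2-fold for 0 of the 10 members.

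HRK and BBC3 were the 2 members called lower, and the sequence upstream of each is shown so that they can be compared. BAX, an effector within 2-fold, is shown beside them. The sequences are from RefSeq (GRCh38.p14), run 5′ to 3′ on the gene's strand and end before the outermost annotated start of the gene. They span chr12:116881442-116881691 on the minus strand for HRK, chr19:47232861-47232917 on the minus strand for BBC3 and chr19:48954625-48954814 on the plus strand for BAX. Their lengths differ, at 250 bases for HRK, 57 for BBC3 and 190 for BAX. The counts of motifs and CpG given below are of longer windows that contain these stretches. Capitals mark GGGCGG or its complement CCGCCC (a GC box) and CACGTG (an E-box).
HRK: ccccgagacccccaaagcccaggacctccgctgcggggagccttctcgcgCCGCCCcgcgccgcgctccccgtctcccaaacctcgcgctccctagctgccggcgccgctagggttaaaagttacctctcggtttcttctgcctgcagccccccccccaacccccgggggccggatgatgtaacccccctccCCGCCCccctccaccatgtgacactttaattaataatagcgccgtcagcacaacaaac
BBC3: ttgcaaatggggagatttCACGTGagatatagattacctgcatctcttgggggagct
BAX: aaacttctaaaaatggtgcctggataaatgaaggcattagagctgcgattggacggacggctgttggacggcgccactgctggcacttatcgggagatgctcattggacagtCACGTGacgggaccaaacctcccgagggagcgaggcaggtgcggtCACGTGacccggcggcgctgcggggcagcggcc

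RefSeq windows of 300 bases, 250 before and 50 after a start, were found for 9 of the 10 members, in 14 windows, with none for MCL1. The HRK window held 25 CpG dinucleotides and the BBC3 window 5, against a median of 14 over all 35116 windows. GGGCGG, on either strand, occurred 2 times in the HRK window, 0 times in that of BBC3 and 2 times in that of BAX, and 45% of all windows held it. CACGTG occurred 0 times in the HRK window, 1 time in that of BBC3 and 4 times in that of BAX, and 7.26% of all windows held it. The p53 decamer was found among the members in the BAK1 window alone, and 6.63% of all windows held one. GTAAACA was found in the BCL2L11 window (3.42% of all windows) and TATAAA in a BCL2L1 window (11.5%). TTTGGCGC was in none of the members' windows and in 0.652% of all windows. The motifs were searched on both strands and matches to different motifs could overlap. Of the 6 motifs searched, the HRK window held GGGCGG alone and the BBC3 window CACGTG alone. How often any pair of windows has no motif in common was not tested.

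The pro-survival genes differed little where counts were high. MCL1, whose short-lived protein guards against BAK1 and BAX, had 4449 resistant and 4946 parental counts. Its log2 ratio was -0.14 (ratio 0.905, interval 0.869 to 0.943). BCL2L1, which encodes BCL-XL, had 1957 resistant and 1801 parental counts and a log2 ratio of 0.13 (ratio 1.09, interval 1.03 to 1.17). MCL1 and BCL2L1, the 2 listed pro-survival genes that reached the minimum, therefore lay on opposite sides of equal levels, each by far less than 2-fold. The count ratio of MCL1 to BCL2L1 was 2.27 (resistant) and 2.75 (parental), a change of 0.828-fold (interval 0.767 to 0.894). Such a ratio is not one of levels, since the genes differ in length. A fixed length for each gene and the scaling drop out of its change. A trend of the log2 ratios with gene length would not drop out. BCL2, the founding member, had 16 resistant and 28 parental counts, and a difference was not detectable at this depth (ratio 0.575, interval 0.291 to 1.10). Its log2 ratio of -0.76 was -0.30 with the trend against gene length removed.

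Both effector genes were close to level. BAX, which moves from the cytosol to mitochondria when activated, had 458 resistant and 399 parental counts. Its log2 ratio was 0.21 (ratio 1.16, interval 1.01 to 1.32). BAK1, which resides in the outer membrane, had 292 resistant and 261 parental counts and a log2 ratio of 0.17 (ratio 1.13, interval 0.95 to 1.34). The 2 effectors stood in a similar proportion: the count ratio of BAX to BAK1 was 1.57 (resistant) and 1.53 (parental), a change of 1.03-fold (interval 0.823 to 1.28).

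The 5 listed BH3-only genes all had log2 ratios below 0, where 48.8% of all genes at the minimum lay below 0. HRK, which binds BCL-XL in particular, had 18 resistant and 59 parental counts. Its level was 3.26-fold lower in resistant cells (log2 ratio -1.65; ratio 0.307, interval 0.170 to 0.528). With the trend against gene length removed, the log2 ratio of HRK was -1.27. Among the 1969 genes whose larger count was at least 50 but under 100, 17.6% were called lower. BBC3, which encodes PUMA and is a classical p53 target that can bind every pro-survival protein, had 117 resistant and 243 parental counts. That is 2.06-fold lower (log2 ratio -1.04; ratio 0.485, interval 0.385 to 0.607), just past the 2-fold size. Among the 1314 genes whose larger count was at least 200 but under 300, 10.4% were called lower. The intervals of HRK and BBC3 exclude equal levels but reach across 2-fold. BBC3 fell short of 2-fold with the deposited FPKM values (log2 ratio -0.99), with upper quartile scaling (-0.97) and with the trend against gene length removed (-0.99).

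BID, which caspase-8 cleaves to link death receptors to mitochondria, had 678 resistant and 881 parental counts. Its log2 ratio was -0.37 (ratio 0.775, interval 0.700 to 0.857). PMAIP1, which encodes NOXA, the partner that targets MCL1 for degradation, had 553 resistant and 631 parental counts. Its log2 ratio was -0.18 (ratio 0.882, interval 0.786 to 0.990). BCL2L11, which encodes BIM, an activator controlled by FOXO factors and ERK signalling, had 17 resistant and 30 parental counts (ratio 0.570, interval 0.295 to 1.07). These counts do not separate BCL2L11 from equal levels, and MIR4435-2HG, with 614 and 415 counts, overlaps it on the opposite strand in GENCODE, and whether the counting used strand is not stated. BBC3 and PMAIP1, both known as p53 targets, stood in different proportions. Their count ratio was 0.212 (resistant) and 0.385 (parental), a change of 0.550-fold (interval 0.425 to 0.709).

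**Figure D1:**
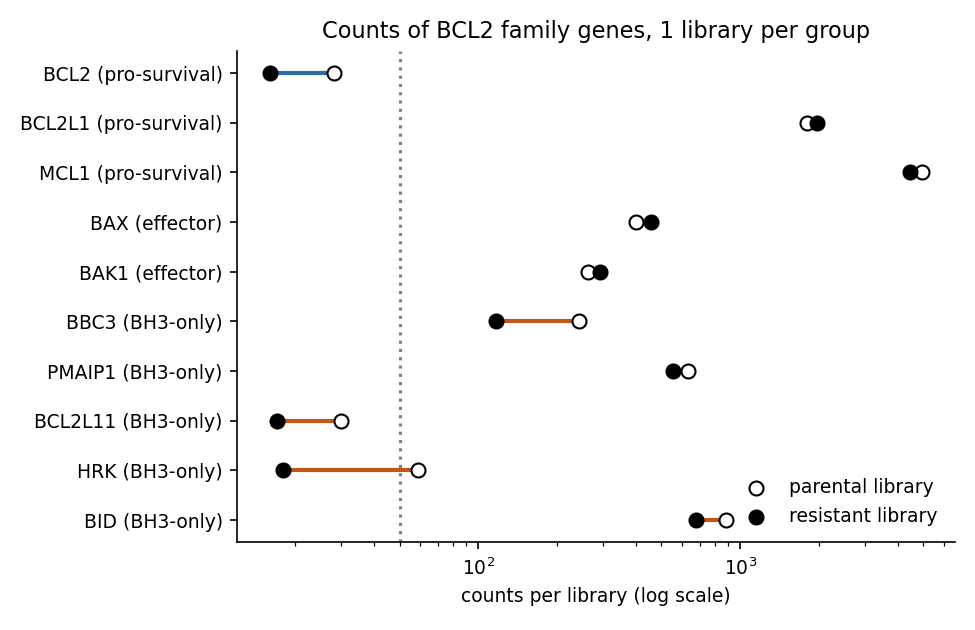
Counts of each of the 10 members (horizontal axis, log scale) in the parental library (open circles) and the resistant library (filled circles), joined by a line coloured by role, with the count minimum of 50 dotted. HRK and BBC3 have the widest gaps among members that reach the minimum, while BCL2 and BCL2L11 lie to the left of it in both libraries.

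Set side by side, the 3 roles differed in their median log2 ratios, but the pro-survival and BH3-only ranges overlapped. Pro-survival members ran from -0.76 to 0.13 and BH3-only members from -1.65 to -0.18. The low end of the pro-survival range was BCL2, which did not reach the count minimum. The 3 pro-survival members had a median of -0.14, the 2 effectors one of 0.19 and the 5 BH3-only members one of -0.78, beside 0.06 for all genes at the minimum. Over members at 50 counts or more, the medians were -0.01 for 2 pro-survival, 0.19 for 2 effector and -0.70 for 4 BH3-only genes. HRK is among those 4 through its parental count alone. With a minimum of 200 counts, which leaves HRK out, the BH3-only median was -0.37. Genes are not replicates, and these medians describe the lists in 2 libraries. Summed counts of the 5 BH3-only genes were 1383 (resistant) and 1844 (parental). Their ratios to the summed pro-survival counts (6422 and 6775) were 0.215 and 0.272, a change of 0.791-fold (interval 0.732 to 0.856). The ratio of the summed counts of BAX and BAK1 to the pro-survival sum was 0.117 (resistant) and 0.0974 (parental), a change of 1.2-fold (interval 1.07 to 1.34). Where counts of several genes are summed, gene length does not drop out of the change. Relative to pro-survival counts, BBC3 changed 0.508-fold, HRK 0.322-fold, BID 0.812-fold, PMAIP1 0.925-fold and BCL2L11 0.598-fold. The intervals for PMAIP1 (0.819 to 1.04) and BCL2L11 (0.309 to 1.12) included no change.

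Other BH3-only genes of the family did not all lie below 0. BIK, which encodes a BH3-only protein of the endoplasmic reticulum, had 2319 resistant and 1836 parental counts (log2 ratio 0.35; ratio 1.27, interval 1.2 to 1.35). BAD, which growth factor kinases hold inactive by phosphorylation, had 233 and 165 counts (log2 ratio 0.50, ratio 1.42, interval 1.16 to 1.75). GPR137, with 62 and 94 counts, overlaps it on the opposite strand. BMF had 32 and 43 counts and could not be separated from equal levels (interval 0.459 to 1.21). BCL2L2, which encodes the pro-survival protein BCL-W, had 2254 and 1870 counts (log2 ratio 0.28). The read-through gene BCL2L2-PABPN1 overlaps it on the same strand. The pro-survival genes BCL2A1, with 2 and 6 counts, and BCL2L10, with 2 and 0, were too sparse to compare. BOK, an effector relative, had 516 and 499 counts and a log2 ratio of 0.06. With these 7 genes added, 8 BH3-only genes held 3967 resistant and 3888 parental counts, and their ratios to the counts of 6 pro-survival genes were 0.457 and 0.449. That change in the summed counts was 1.02-fold (interval 0.964 to 1.07). BIK alone held 2319 and 1836 of those BH3-only counts, and without it the change was 0.8-fold (interval 0.745 to 0.86). Gene by gene, 6 of the 8 BH3-only genes had log2 ratios below 0, with a median of -0.39, although the intervals of BCL2L11 and BMF included equal levels. The summed counts of BAX, BAK1 and BOK had ratios of 0.146 (resistant) and 0.134 (parental) to those of the same 6 pro-survival genes. That change was 1.09-fold, and its interval (0.999 to 1.19) included no change.

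**Figure D2:**
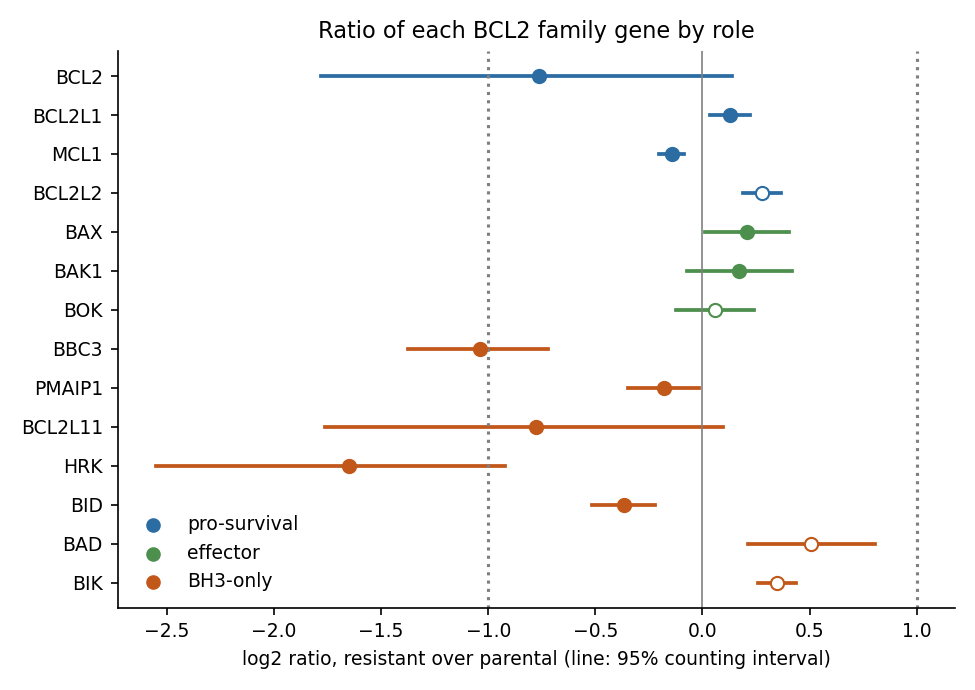
Log2 ratio of resistant over parental for the 10 listed members (filled) and for other family genes of the same roles at 50 counts or more (open), with 95% counting intervals as lines, colours for roles and dotted lines at 2-fold. The listed BH3-only genes lie left of 0, whereas BAD and BIK lie to its right.

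The list of other family genes has 13 members and includes BIK, BAD, BMF, BCL2L2, BCL2A1, BCL2L10 and BOK. Of these 13, 9 reached 50 counts, and their median log2 ratio was 0.28. Among the 9, 0 were called higher and 0 lower, beside 15.0% of all genes called either way. BCL2L14, with 541 and 970 counts, was lowest at -0.83, and it overlaps LRP6 on the opposite strand. BCL2L15, a relative found in the gut epithelium, had 4076 and 6064 counts and a log2 ratio of -0.56. BCL2L12 and BCL2L13 both stood at 0.51. The mitophagy receptor BNIP3L was at -0.28, while its close relative BNIP3 had 0 resistant and 4 parental counts.

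Levels of different genes were compared per length only. By deposited FPKM, the order was the same in both libraries: MCL1, BID, BCL2L1, PMAIP1, BAX, BAK1, BBC3, BCL2L11, HRK and BCL2. MCL1 stood at 47.1 FPKM in the resistant and 50.2 in the parental library, BID at 24.1 and 30.1 and BCL2L1 at 19.9 and 17.5. PMAIP1 was at 8.08 and 8.84, BAX at 3.96 and 3.31, BAK1 at 2.60 and 2.23 and BBC3 at 0.788 and 1.57. BCL2L11 was at 0.414 and 0.701, HRK at 0.037 and 0.115 and BCL2 at 0.025 and 0.042. BCL2 was the scarcest in each library.

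Part of that order comes from the length behind the FPKM values. Relative to genes with 1 transcript, the length in the FPKM of BID corresponded to 330.0 bases, while the longest BID transcript in GENCODE release 29 has 2495. For BCL2L11 it was 482 against 5231 bases, whereas for BAX (1358 against 1358) and HRK (5781 against 5789) the longest transcript had been used. Across 10237 genes with at least 200 parental counts, the length was within 2% of 1 annotated transcript for 90.3% and below 0.5 of the longest for 47.3%. Counts divided by the length of all annotated exons and by the library total, in units like those of FPKM, gave BID 4.42 in the resistant and 5.73 in the parental library, below PMAIP1 at 7.17 and 8.17. On that scale BID ranked 5 and 4 and BCL2L1 ranked 2 in both libraries, at 17.1 and 15.7. BAX and BID are neighbours there and changed places, with BAX at 5.13 and 4.46. MCL1 was first and BCL2 last on either scale.

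As shares of the summed FPKM of the 10 genes, pro-survival genes made up 62.6% of the resistant and 59.1% of the parental library. Effectors made up 6.13% and 4.83%, and BH3-only genes 31.3% and 36.0%. MCL1 alone held 44.0% and 43.8%. With exonic length in place of the deposited length, BH3-only genes were 18.7% and 22.6%, and effectors 13.1% and 10.8%. With the 7 other family genes included, BH3-only genes were 46.0% of the summed FPKM in both libraries, and by exonic length 53.2% of the resistant and 50.1% of the parental library. The direction of the difference in the BH3-only share thus depended on which genes were counted. Effectors of the wider family held 5.74% of the resistant and 5.08% of the parental summed FPKM, and 8.81% and 8.80% by exonic length.

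**Figure D3:**
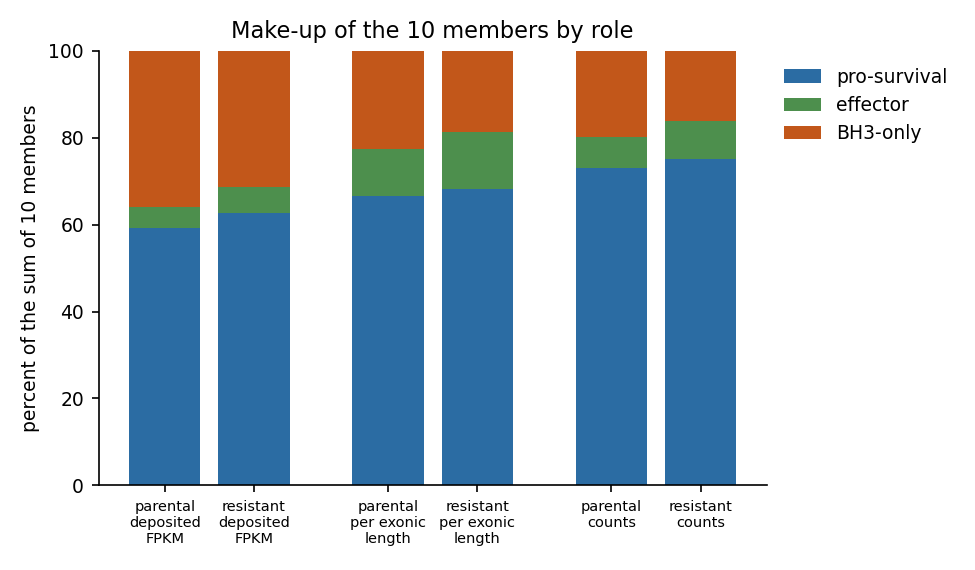
Percent of the summed level of the 10 members held by each role, in the parental and resistant library, by deposited FPKM, by counts per exonic length and by counts. The BH3-only part is smaller in the resistant library for each measure, at 31.3% against 36.0% by FPKM, while its size differs more between measures than between libraries.

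Position was compared through the nearest measured coding genes in GENCODE order, up to 10 on each side. BAX and BBC3 both lie on chromosome 19, and BCL2 and PMAIP1 both on chromosome 18, where their neighbour sets partly coincide. HRK, on chromosome 12, lay below all 20 of its neighbours, whose median log2 ratio was -0.29 and of which 2 were called lower and 0 higher. BBC3 had 3 of 20 neighbours below it, a neighbour median of -0.22, and 3 neighbours called lower and 1 higher. Over all genes at the minimum, 8.95% were called lower and 6.0% higher. BCL2L11, on chromosome 2, had 1 of 20 neighbours below it and a neighbour median of -0.06. BID, on chromosome 22, had 14 measured neighbours, 2 of them below it, and their median was 0.32. For MCL1 on chromosome 1, BAX and BAK1 on chromosome 6, the gene and its neighbour median differed by -0.16, 0.15 and -0.06. BCL2L1, on chromosome 20, was 0.32 above its neighbours. BCL2 had 1 of 20 neighbours below it and differed from their median by -1.07, and PMAIP1 had 6 of 20 below it and differed by -0.46. BCL2 and BCL2L11 did not reach the count minimum that each neighbour had to reach, and their intervals included equal levels. Called higher were 5 neighbours of BCL2, 4 of PMAIP1 and 3 of BID, with 0 called lower. BCL2L11 had 1 neighbour called each way, BAX 1 higher and BCL2L1 1 lower, while MCL1 and BAK1 had 0 called. No member lies on chromosome 13, which carries BRCA2.

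**Figure D4:**
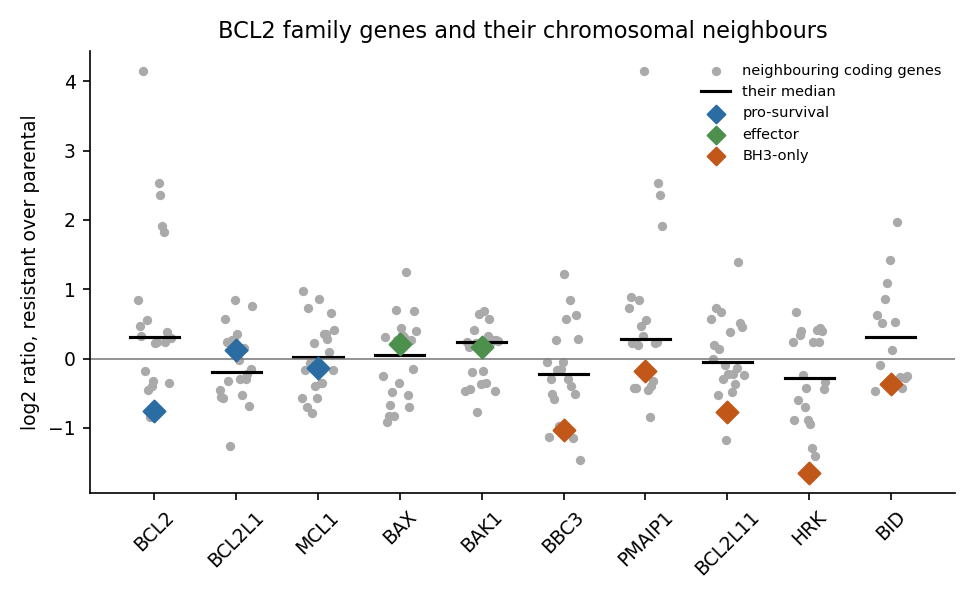
Log2 ratio of each member (diamond, coloured by role) beside those of up to 20 neighbouring coding genes at 50 counts or more (grey points) and their median (black bar). HRK lies under every neighbour shown, while MCL1, BAX and BAK1 lie near their neighbours' medians.

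Downstream of the family, transcripts of the death machinery were mostly within 2-fold. In the list of the apoptosome and executioner caspases, 0 of 11 were called, beside 15.0% of all genes, and the median log2 ratio was 0.23. DFFA, the inhibitor of the caspase-activated nuclease, was highest at 0.95 (3356 and 1744 counts), and APAF1, the scaffold of the apoptosome, lowest at -0.66 (738 and 1176 counts). The list of inhibitors of apoptosis and their antagonists had 0 of 7 measured genes called and a median of 0.36. DIABLO, which encodes SMAC, an antagonist released with cytochrome c, was at 0.81 with 3024 and 1738 counts. The coding gene AC048338.1, with 6921 and 4088 counts, overlaps it on the same strand. XIAP, the main caspase inhibitor, was at 0.57 with 189 and 128 counts. Among 10 mitochondrial partners, 1 was higher and 0 lower, with a median of 0.36. The mitochondrial phosphatase gene PGAM5 was 2.41-fold higher (5664 and 2366 counts, interval 2.30 to 2.53). The non-coding AC135586.2, with 631 and 342 counts, overlaps it on the same strand.

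Upstream of BID, genes of the death receptor route went both ways, with 1 of 7 higher, 1 lower and a median of 0.50. FAS, a death receptor, had 1948 and 809 counts (2.42-fold higher, interval 2.23 to 2.63), and ACTA2 overlaps it on the opposite strand. CFLAR, which encodes the caspase-8 inhibitor FLIP, had 982 and 2038 counts (2.06-fold lower, ratio 0.485, interval 0.449 to 0.524). AC007283.1, with 155 and 243 counts, overlaps it on the same strand. Among 11 transcription factors known to control members, 1 was higher and 1 lower, and the median was -0.35. TP73 had 57 and 11 counts (ratio 5.22, interval 2.71 to 11), but it overlaps WRAP73, with 1265 and 750 counts, on the opposite strand. TP63 had 24 and 61 counts (2.52-fold lower; ratio 0.396, interval 0.236 to 0.645). Both passed the minimum in 1 library only. Of 9 genes for turnover or stabilisation of MCL1, 8 reached 50 counts and 0 were called, with 6 below 0 and a median of -0.57. The lowest, at -0.68, were the ubiquitin ligase gene MARCHF5 (772 and 1249 counts) and the ERK phosphatase gene DUSP6 (853 and 1376 counts). That median was -0.23 with the length trend removed. These counts stand beside a background of 15.0% of all genes called.

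**Figure D5:**
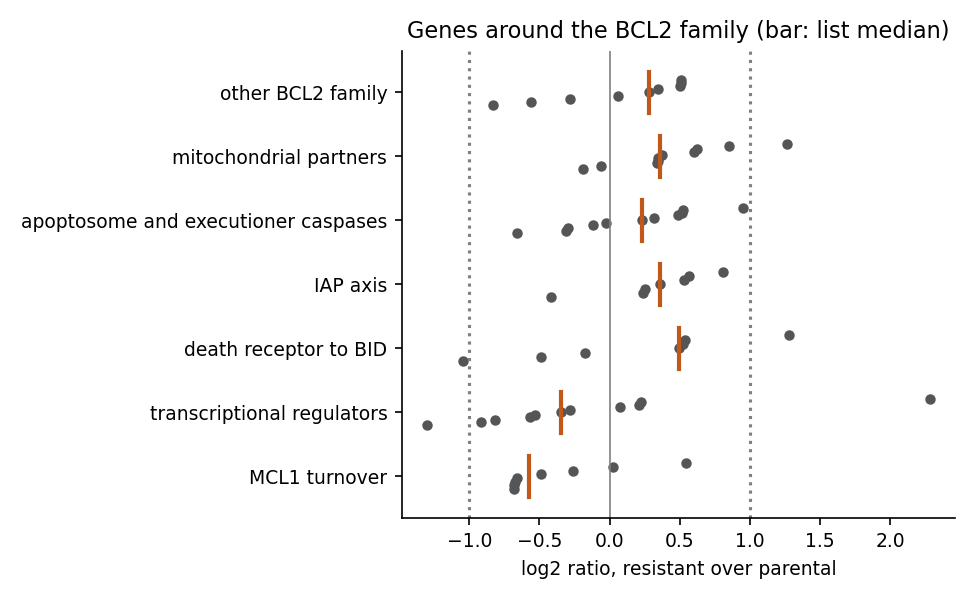
Log2 ratios of genes at 50 counts or more in 7 lists around the family (points), with the list median as a bar and dotted lines at 2-fold. PGAM5, FAS and TP73 lie right of the upper line and CFLAR and TP63 left of the lower one.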

How the data were processed

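Counts and FPKM values per gene were taken from 1 table deposited by the authors. Per the file headers each library has 1 column of counts and 1 of FPKM; the deposited counts are whole numbers, not normalized. The submitters' processing notes name RSEM 1.2.3 and hg19 without a role. No aligner, annotation or strand setting is given in the sources used here. Per the labels' protocols, libraries were strand-specific and made from total RNA.

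Symbols came from a gene name table (29536 of 31845 identifiers matched). GENCODE release 29, of another build, served for names, order, overlaps and lengths, and no coordinate of it is printed. TMM factors came from edgeR 4.0.16, alternative size factors from DESeq2 1.42.0, in R 4.3.3. Python 3.11.15 with scipy 1.17.1 and statsmodels 0.14.6 did the rest. Intervals are Clopper-Pearson intervals of the split of 2 counts, or exact intervals of an odds ratio. Reads carry no molecular identifiers, so both cover counting error only. Calls were tested on simulated data.

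The members and lists were chosen with earlier results of these data known. The rule for names took all members and other family genes, and from each other list up to 4 genes past 2-fold or the 2 furthest from 0; marker genes and genes named as overlaps or neighbours were chosen after their values were seen. Count ratios between members, exonic lengths, the wider family and its sum without BIK were added after seeing the data.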

Additional observations from a re-analysis of the deposited data

How the results depend on the processing

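No paired analysis was possible because each group has 1 library and the labels carry no replicate numbers. For the same reason no library could be left out. Of 70 values of single members under 7 alternatives of scaling, unit, length trend and prior count, 0 changed sign and 1 left its counting interval, that of MCL1 under upper quartile scaling (-0.07). Removal of the length trend moved BCL2 from -0.76 to -0.30 and HRK from -1.65 to -1.27, inside their wide intervals. No alternative moved the median of all genes by more than 0.1.

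The number of members called lower was 2. It was 1 under upper quartile scaling, deposited FPKM values and removal of the length trend, where BBC3 missed 2-fold, and 1 with a minimum of 200 counts, where HRK was left out. It was 0 at a 4-fold size and 0 when the whole counting interval had to lie past 2-fold. The numbers of all genes higher and lower, 906 and 1352, came to 1975 and 2821 at a minimum of 10 counts, 474 and 741 at 200, 5565 and 5887 without one, 2541 and 3209 at 1.5-fold, 252 and 250 at 4-fold, and 504 and 747 with whole intervals past 2-fold, all by construction.

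The pro-survival median of -0.01 was 0.064 under upper quartile scaling, -0.14 with a minimum of 10 counts or none, and 0.13 with the other family genes added. The BH3-only median of -0.70 was -0.37 with a minimum of 200 counts and -0.27 with the other family genes. Effector medians stayed within their counting interval under each alternative run. Of 49 list medians, 44 did so.

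Shares by role moved with the genes and lengths used. Without MCL1, pro-survival, effector and BH3-only genes held 33.2%, 10.9% and 55.8% of the resistant library and 27.3%, 8.59% and 64.1% of the parental one. As counts not divided by length they held 75.1%, 8.77% and 16.2%, and 73.0%, 7.11% and 19.9%. By exonic length they held 68.2%, 13.1% and 18.7%, and 66.6%, 10.8% and 22.6%. With the other family genes, pro-survival and BH3-only genes held 48.2% and 46.0%, and 48.9% and 46.0%. Within the family, depth limited BCL2, BCL2L11, BMF, BCL2A1, BCL2L10 and BNIP3, whose intervals included equal levels. The intervals of BAK1 and BOK, which stood close to level, included them too.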

Other observations

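Near BCL2 and PMAIP1 on chromosome 18, a few measured genes stood far above the 2 members. SERPINB5, which encodes maspin, had a log2 ratio of 2.53, SERPINB2, a plasminogen activator inhibitor, one of 2.36 and SERPINB10 one of 1.92. CCBE1, a secreted factor of lymphatic growth, had one of 4.15, the highest among the neighbours of these members. With 158 resistant and 8 parental counts, CCBE1 reached the minimum in the resistant library only. BCL2 itself stood at -0.76 and PMAIP1 at -0.18. These 4 genes were chosen after their values were seen, and no explanation was tested.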
